A study of Mus musculus and Homo sapiens
Mus musculus with 12 samples.

Results

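The immediate early genes described here were 10 genes chosen by symbol: Fos, Fosb, Jun, Junb, Egr1, Egr3, Npas4, Nr4a1, Nr4a3 and Arc. All 10 had a row among the 34496 genes of the mouse brain count files. They were followed in 11198 nuclei of 7 snHH-seq libraries, a droplet method that primes total nuclear RNA at random positions and counts each cDNA fragment once as a unique fragment identifier (UFI). The study's methods name wild-type C57BL/6J male mice of 6 to 8 weeks. Of the 7 libraries, 4 were made from frozen brain and 3 from fresh brain. The reverse transcription primer carried a preindex, a well barcode added at reverse transcription, in 2 frozen libraries (Index_frozen) and 1 fresh library (Index_fresh) and none in 2 frozen (No_index_frozen) and 2 fresh libraries (No_index_fresh). How many animals were used per library is not given in the sources used here, so the p-values measure the spread between libraries, which may be technical. Title and treatment field disagree on the primer for 4 of the 7 libraries, and groups follow the titles here. Barcode length followed the titles too, with 40 bases where the title names a preindex (3 libraries) and 30 where it does not (4 libraries).

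Immediate early genes are transcribed within minutes of a stimulus without new protein synthesis, in neurons mostly after calcium entry through synaptic receptors and channels. Kinases such as those of the MAPK and CaMK pathways then activate CREB, SRF and MEF2 at promoters and enhancers that are already accessible. Fos, Fosb, Jun and Junb encode subunits of the AP-1 transcription factor, Egr1 and Egr3 encode zinc finger transcription factors, and Npas4 encodes a neuronal bHLH-PAS transcription factor. Nr4a1 and Nr4a3 encode orphan nuclear receptors, and Arc encodes a synaptic protein involved in the removal of AMPA receptors. Because a nucleus holds new and unspliced transcripts, nuclear RNA is widely used to read these genes in brain tissue.

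Upstream sequence was available for 7 of the 10 genes in the RefSeq promoter table used here (Fos, Fosb, Jun, Junb, Npas4, Nr4a1 and Nr4a3). The 5-base core of the cAMP response element, TGACG, was searched on both strands in the 250 bases before each RefSeq start. It was found in 6 of these 7 genes, and 17.8% of 32851 such stretches of all genes held it. The full palindrome TGACGTCA, which contains the core, was in none of the 7 stretches and in 1.55% of all stretches. The AP-1 letters TGANTCA were in none of the 7 and in 6.75% of all stretches, and the CArG box was in none of the 7 and in 1.47%. Sequence beyond these 250 bases was not searched, and Egr1, Egr3 and Arc had no stretch to search. The absences hold for this window and these 7 genes only. Within this window Nr4a1 and Nr4a3 each held 4 cores, the most of the 7 genes. Fos held 2 cores, at -129 and -66, and the letters TATAAA at -33 from its start, letters that 12.4% of all stretches held. The stretches of Fos, Nr4a1 and Nr4a3 are shown because Nr4a1 and Nr4a3 are among the 4 genes whose storage difference differed between the primers by its test and Fos is the best known gene of the group. They are written from the 5′ end, on GRCm38.p6, all on the plus strand, with the core (on either strand) and TATAAA in capitals. They lie at chr12:85473640-85473889, chr15:101266596-101266845 and chr4:48045055-48045304, and in the GENCODE annotation the Nr4a1 stretch and part of the Nr4a3 stretch lie inside longer gene models.
Fos: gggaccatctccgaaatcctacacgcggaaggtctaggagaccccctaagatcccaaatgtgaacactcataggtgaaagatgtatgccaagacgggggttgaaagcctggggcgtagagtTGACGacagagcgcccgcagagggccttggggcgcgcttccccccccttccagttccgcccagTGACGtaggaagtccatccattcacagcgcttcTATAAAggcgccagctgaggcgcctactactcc
Nr4a1: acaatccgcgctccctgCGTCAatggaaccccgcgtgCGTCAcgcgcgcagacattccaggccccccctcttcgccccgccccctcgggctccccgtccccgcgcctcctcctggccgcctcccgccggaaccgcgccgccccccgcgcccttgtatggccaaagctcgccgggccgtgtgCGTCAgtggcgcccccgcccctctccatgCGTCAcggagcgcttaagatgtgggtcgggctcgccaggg
Nr4a3: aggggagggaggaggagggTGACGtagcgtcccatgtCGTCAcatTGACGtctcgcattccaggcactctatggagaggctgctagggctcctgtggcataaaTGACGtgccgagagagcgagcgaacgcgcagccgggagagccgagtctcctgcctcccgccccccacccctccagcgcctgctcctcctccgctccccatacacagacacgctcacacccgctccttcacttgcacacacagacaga
A match of letters is a description of the sequence, and binding at these places was not measured.

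Library size ran from 700 to 3100 nuclei and from 8605214 to 42439731 UFIs, with medians from 9011 to 27543 UFIs per nucleus. Clustering without the 10 genes and the related genes named below gave 44 clusters, of which 9940 nuclei were neuron-like by their markers. The 6 neuron markers summed to between 6119 and 6603 CPM (UFIs of a gene scaled to a common library total, counts-per-million) in every library. Libraries stood apart in other respects. A cluster of 471 kidney tubule-like nuclei came only from the 2 Index_frozen libraries (261 and 210 nuclei), and 20 liver-like nuclei came only from Index_fresh. Cerebellar granule-like nuclei (104) and Purkinje-like nuclei (30) came only from the 4 libraries without preindex. Between 0 and 10 full barcodes were shared by any pair of libraries. No doublets were removed.

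The 10 genes were scarce in these nuclei. They took 14681 UFIs of 180739290 in all, and 45.8% of nuclei held at least 1 of them. Nr4a3 had the most UFIs (3914), followed by Egr1 (3722), Nr4a1 (2850), Arc (1292), Egr3 (952), Jun (666), Npas4 (647), Junb (241), Fosb (204) and Fos (193). Introns were counted, so levels between genes are compared per kilobase of gene, taken from the GENCODE M21 annotation of GRCm38. On this scale Egr1 was highest with a level of 4.07 ± 1.23 CPM per kilobase (mean ± SD, n = 7 libraries), and Arc was next at 2.04 ± 0.859. Jun (1.15 ± 0.232), Egr3 (0.991 ± 0.224) and Nr4a1 (0.756 ± 0.260) followed, and the range of mean ± SD of each overlapped that of the next. The place of Nr4a1 depends on the gene model. Its RefSeq start, just after chr15:101266845, lies inside the GENCODE model, which begins at 101254269. Its level over a shorter model was not computed. Npas4 (0.566 ± 0.166), Nr4a3 (0.521 ± 0.138), Fos (0.321 ± 0.139), Junb (0.281 ± 0.136) and Fosb (0.155 ± 0.0634) were lowest. Nr4a3, first by UFIs, was seventh per kilobase because its gene spans 41295 bases (chr4:48045153-48086447), against 3488 bases for Arc (chr15:74669083-74672570) and 20527 for Nr4a1 (chr15:101254269-101274795). This order depends on dividing by the whole gene, which weighs introns like exons. Exon lengths are closer, at 5987 bases for Nr4a3, 3509 for Nr4a1, 4484 for Egr1 and 3057 for Arc. Levels per kilobase of exon were not computed, and Nr4a3 and Nr4a1 would stand higher on that scale. In the same annotation 689 bases of Jun are shared with the antisense gene Junos and 351 bases of Junb with Prdx2 on the opposite strand. Junos had 5159 UFIs, more than Jun. The study describes UFI counting as specific for strand, but the strand setting of the gene assignment for these libraries is not given in the sources used here, so the split of reads in these stretches is uncertain. Junos lay between 25.4 and 32.3 CPM and Prdx2 between 3.98 and 6.03 CPM over the 7 libraries.

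The question of the storage comparison is whether frozen tissue gives the same nuclear transcripts as fresh tissue, and it was asked within each primer. Without preindex, frozen and fresh libraries lay close for most of the 10 genes, and Junb was the only gene whose difference passed the test. With preindex, every gene was lower in both frozen libraries than in the fresh library, and 7 of the 10 passed, with Arc, Nr4a1, Egr1 and Nr4a3 at 0.295 to 0.480 of the fresh level. The 10 genes summed to 88.3 and 80.0 CPM in the No_index_frozen libraries and to 96.1 and 93.0 in the No_index_fresh libraries. They summed to 50.3 and 50.7 CPM in the Index_frozen libraries and to 108 in Index_fresh. In these sums fewer cells with high levels and less RNA per cell cannot be told apart.

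**Figure D1:**
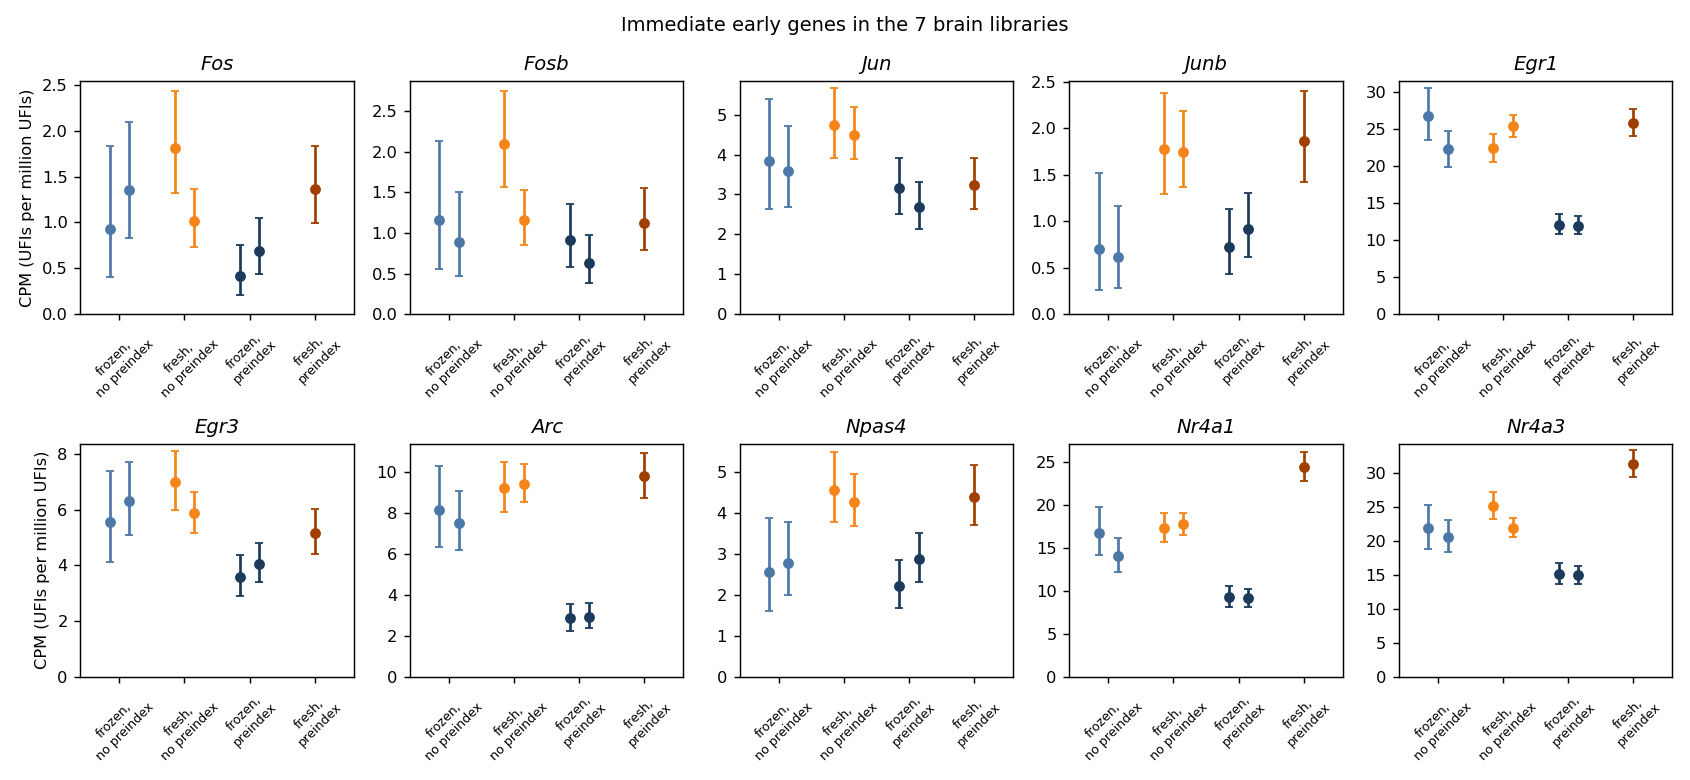
Level of each immediate early gene in the 7 brain libraries. The y axis gives CPM from 0, points are libraries, bars are exact 95% Poisson intervals (counting error only), and the x axis gives storage and primer. The 2 Index_frozen points of Arc sit at 2.85 and 2.92, below the other 5 libraries, which lie between 7.54 and 9.81.

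Among the AP-1 genes, Fos was found at 0.930 and 1.36 CPM in No_index_frozen replicates 1 and 2, at 1.82 and 1.01 in No_index_fresh, at 0.418 and 0.692 in Index_frozen and at 1.37 in Index_fresh. These values rest on 8 to 45 UFIs per library, and frozen and fresh overlapped without preindex. The log2 fold change of frozen over fresh was -0.15 ± 0.40 (SE) without preindex (adjusted p = 0.901, edgeR quasi-likelihood test) and -1.32 ± 0.44 with preindex (adjusted p = 0.0427). Fosb, its close relative, did not pass in either comparison, with -0.61 ± 0.41 and -0.61 ± 0.43. Its levels were 1.16 and 0.883 CPM in No_index_frozen, 2.10 and 1.15 in No_index_fresh, 0.913 and 0.629 in Index_frozen and 1.12 in Index_fresh. Jun lay at 3.83 and 3.598 CPM in No_index_frozen, 4.73 and 4.50 in No_index_fresh, 3.16 and 2.67 in Index_frozen and 3.24 in Index_fresh. Jun differed little between storage groups, and its differences of -0.28 ± 0.18 and -0.21 ± 0.20 did not pass (adjusted p = 0.467 and 0.511). Junb lay at 0.697 and 0.611 CPM in No_index_frozen and at 1.78 and 1.74 in No_index_fresh. It lay at 0.723 and 0.912 in Index_frozen and at 1.87 in Index_fresh. Junb was the only AP-1 gene of the 4 that passed the test with both primers, by -1.40 ± 0.34 without preindex (adjusted p = 0.0329) and -1.23 ± 0.30 with preindex (adjusted p = 0.00874). The No_index_frozen values of Junb rest on 6 and 9 UFIs, and the call without preindex was not made by DESeq2 or when any of the 4 libraries without preindex was left out.

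Egr1, which is among the genes most used to mark active neurons, was among the 4 genes whose storage difference differed between the primers. It lay at 26.8 and 22.3 CPM in No_index_frozen and at 22.5 and 25.4 in No_index_fresh, so that the groups overlapped. It lay at 12.1 and 11.95 in Index_frozen against 25.9 in Index_fresh. The log2 fold change was 0.043 ± 0.093 without preindex (adjusted p = 0.869) and -1.16 ± 0.10 with preindex (adjusted p = 1.02e-06). Egr3, which acts in the same family, lay at 5.58 and 6.31 CPM in No_index_frozen, 6.99 and 5.87 in No_index_fresh, 3.58 and 4.06 in Index_frozen and 5.17 in Index_fresh. Its difference with preindex was -0.49 ± 0.18 (adjusted p = 0.0690) and did not pass. Npas4, which is induced by calcium signals and controls inhibitory synapses, lay at 2.56 and 2.78 CPM in No_index_frozen and at 4.57 and 4.26 in No_index_fresh. It lay at 2.21 and 2.86 in Index_frozen and at 4.39 in Index_fresh. Every frozen library lay below every fresh library for Npas4 with each primer, and the difference passed with preindex (-0.83 ± 0.20, adjusted p = 0.00732) and not without it (-0.67 ± 0.20, adjusted p = 0.0859).

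The nuclear receptor genes and Arc were also followed by library. Nr4a1 lay at 16.7 and 14.1 CPM in No_index_frozen, 17.3 and 17.7 in No_index_fresh, 9.28 and 9.12 in Index_frozen and 24.4 in Index_fresh. Its log2 fold change was -0.17 ± 0.096 without preindex (adjusted p = 0.377) and -1.46 ± 0.098 with preindex (adjusted p = 4.98e-08). Nr4a3 lay at 21.8 and 20.6 CPM in No_index_frozen, 25.1 and 21.8 in No_index_fresh, 15.1 and 14.9 in Index_frozen and 31.3 in Index_fresh. Both receptor genes thus had their highest level in Index_fresh and their lowest in Index_frozen, with the libraries without preindex between them. The log2 fold change of Nr4a3 was -0.10 ± 0.091 without preindex (adjusted p = 0.614) and -1.11 ± 0.092 with preindex (adjusted p = 5.27e-07). Arc lay at 8.13 and 7.54 CPM in No_index_frozen, 9.21 and 9.43 in No_index_fresh, 2.85 and 2.92 in Index_frozen and 9.81 in Index_fresh. It differed most of the 10 genes with preindex, by -1.81 ± 0.14 (adjusted p = 3.29e-07), and by -0.22 ± 0.13 without preindex (adjusted p = 0.395).

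Read against all genes, 1 of 10 members passed as lower without preindex, where 2.33% of 19299 tested genes did, and their median log2 fold change was -0.20 against -0.0068 for all genes. With preindex 7 of 10 passed as lower, where 9.45% of genes did, with a median of -1.14 against 0.010. Frozen and fresh libraries did not overlap for 5 of 10 members without preindex (Jun, Junb, Arc, Npas4 and Nr4a1, all lower in frozen), where 30.6% of tested genes were lower in that way. With preindex this held for 10 of 10 members, where 33.5% of genes were lower in that way. The fresh side of the preindexed comparison is 1 library, and its spread was taken from the other 3 groups. Without Index_frozen replicate 1, and with DESeq2, Arc, Egr1, Nr4a1 and Nr4a3 passed with preindex, 4 of 10, and Fos, Junb and Npas4 did not. The difference between the 2 storage differences passed for Egr1 (-1.20 ± 0.14, adjusted p = 3.18e-05), Arc (-1.59 ± 0.19, adjusted p = 5.36e-05), Nr4a1 (-1.29 ± 0.14, adjusted p = 1.67e-05) and Nr4a3 (-1.01 ± 0.13, adjusted p = 9.31e-05), 4 of 10 members, where 6.49% of genes passed in this direction. For Junb it was 0.17 ± 0.48 and for Npas4 -0.17 ± 0.29, and neither passed.

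**Figure D2:**
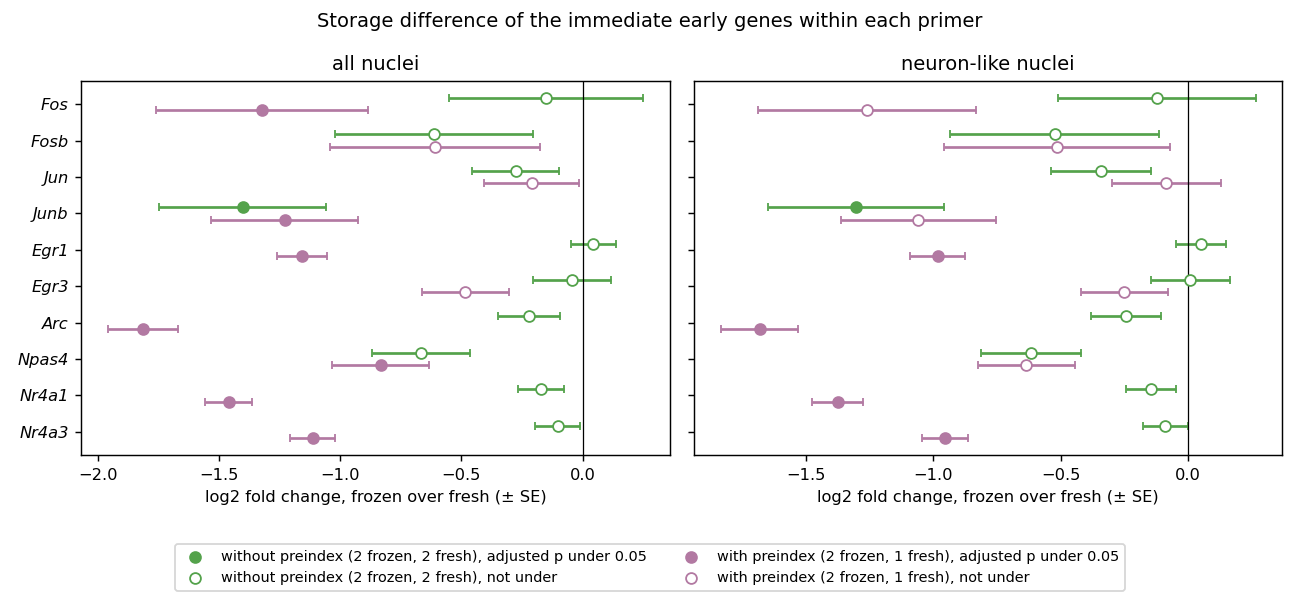
Log2 fold change of frozen over fresh for each gene (x axis, bars are SE) in all nuclei and in neuron-like nuclei, without and with preindex. Filled points have an adjusted p under 0.05 (edgeR). Egr1, Arc, Nr4a1 and Nr4a3 separate by primer in both panels, and Junb and Npas4 lie together at both primers.

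Other values moved with the preindexed comparison. The 11 kidney tubule markers, of which 10 or 11 were detected in each library, summed to 1157 and 1042 CPM in Index_frozen and to 14.1 to 22.1 in the other 5 libraries. The 6 endothelial markers summed to 115 and 156 CPM in Index_frozen and to 29.3 to 57.7 elsewhere. Neuron-like nuclei made up 80.4% and 83.2% of the Index_frozen libraries and 94.1% of Index_fresh, and the cortical and hippocampal excitatory kinds made up 41.5% and 41.5% against 52.2%. Without the kidney and liver nuclei, 5 of 10 members still passed with preindex (Egr1, Arc, Junb, Nr4a1 and Nr4a3), where 3.81% of 18706 genes were lower, with a median of -0.99. In neuron-like nuclei alone, 4 of 10 passed as lower with preindex, where 3.55% of 18314 genes did. They were Arc (-1.68 ± 0.15), Nr4a1 (-1.38 ± 0.10), Egr1 (-0.98 ± 0.11) and Nr4a3 (-0.95 ± 0.089), with adjusted p between 1.39e-06 and 7.92e-05. Junb passed as the only member without preindex in neuron-like nuclei (-1.30 ± 0.35, adjusted p = 0.0425), where 2.46% of genes were lower. The 32 mitochondrial genes, of which 23 to 27 were detected and whose RNA comes from outside the nucleus, summed to 12331 and 10707 CPM in No_index_frozen and to 3882 and 3731 in No_index_fresh. They summed to 7722 and 7686 in Index_frozen and to 5954 in Index_fresh. The part of these values in the differences was not tested beyond the fits given here.

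The share of nuclei with a member was compared at equal depth. When each neuron-like nucleus was thinned to 3000 UFIs, a UFI of any of the 10 genes was found in 20.6% and 18.9% of nuclei in No_index_frozen and in 19.98% and 21.8% in No_index_fresh. The exact 95% intervals of these 4 shares overlapped, spanning 16.2% to 24.2%. The share was 14.0% (interval 12.4% to 15.6%) and 14.2% (12.5% to 16.0%) in Index_frozen, against 21.6% (20.1% to 23.1%) in Index_fresh. The intervals cover counting error only. Before thinning, 64.2% and 55.4% of neuron-like nuclei held no UFI of the 10 genes in Index_frozen and 55.6% in Index_fresh, at median depths of 10592, 14663 and 9080 UFIs. In the kidney tubule-like nuclei of the Index_frozen libraries the thinned share was 4.21% and 3.81%. None of the 20 liver-like nuclei held a UFI of the 10 genes. By a rough bound of 3 over the number of nuclei, this allows a share of up to 15.0%. That bound is not an exact interval like those above.

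The level of the 10 genes differed widely by kind of nucleus, which is given here as a description. Kinds were named from marker genes of clusters, and the 10 genes took no part in the clustering. Summed over the 10 genes and pooled over libraries, layer 6 corticothalamic neuron-like nuclei were highest at 155 CPM, followed by CA pyramidal neuron-like nuclei at 137 and the broad cortical and hippocampal excitatory kind at 117. Layer 5 projection neuron-like nuclei had 109 CPM, D2 and D1 medium spiny neuron-like nuclei had 101 and 78.1, and upper layer excitatory neuron-like nuclei had 91.2. Between libraries with at least 20 nuclei the layer 6 kind ran from 77.9 to 273 CPM, so neighbours in this order did not differ beyond their spread. Kinds of interneurons were lower, at 23.4 (Lhx6), 28.0 (somatostatin), 33.5 (Adarb2) and 50.7 CPM (the general interneuron kind). Thalamic excitatory neuron-like nuclei had 34.5 CPM. The highest thalamic library (49.1 CPM) lay below the lowest library of the broad excitatory kind (71.7 CPM). Oligodendrocyte-like nuclei had 76.5 and astrocyte-like nuclei 82.3 CPM, against 83.6 in all neuron-like nuclei. The pooled astrocyte-like value rests on 243 UFIs, of which 79 and 32 came from single nuclei, and the summed level runs from 13.5 to 75.9 CPM over the 4 libraries with at least 20 such nuclei. A single oligodendrocyte-like nucleus held 43 UFIs of the 10 genes. Kidney tubule-like nuclei had 14.4 CPM.

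**Figure D3:**
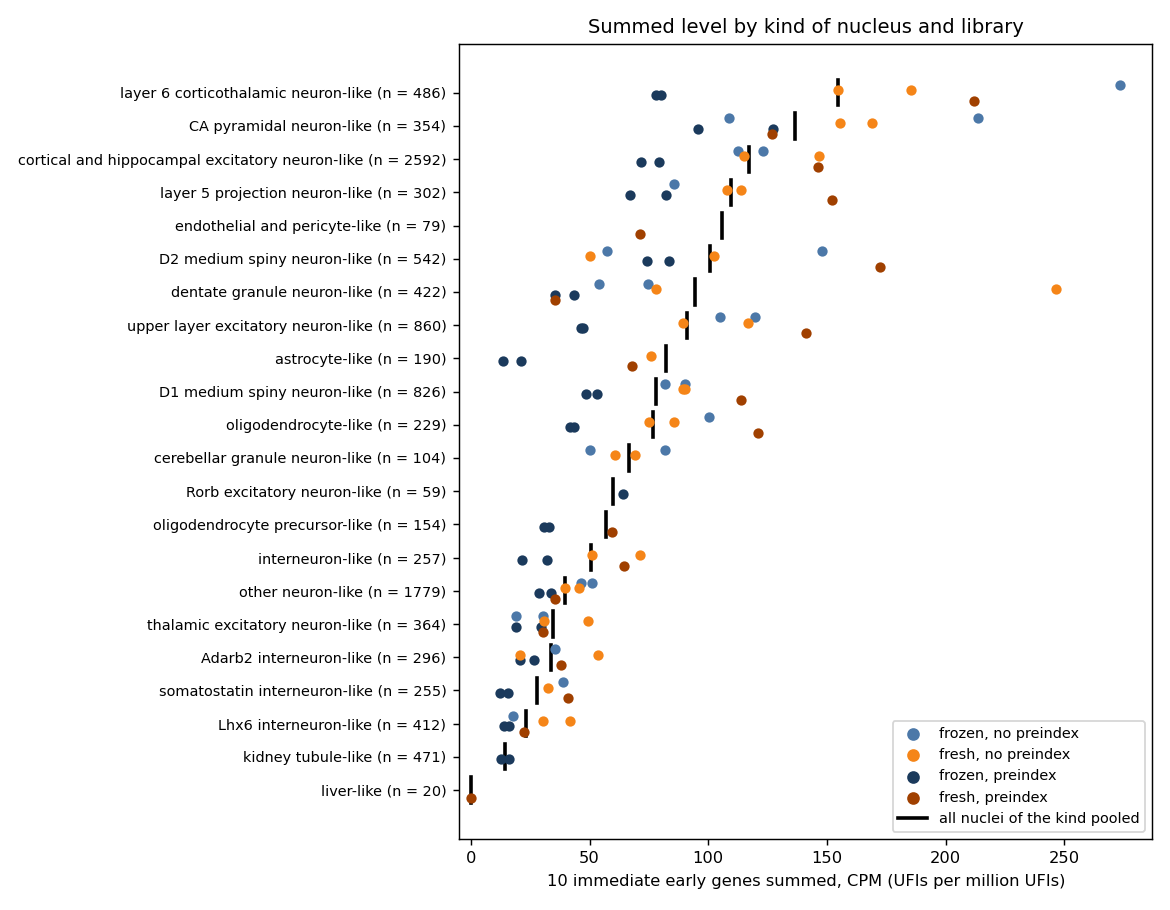
The 10 immediate early genes summed, in CPM (x axis), by kind of nucleus. Points are libraries with at least 20 nuclei of the kind, coloured by storage and primer, and bars are all nuclei of the kind pooled. Index_frozen libraries sit at the low end of most kinds, and a No_index_fresh library stands at 246 in the dentate granule kind.

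Each gene had its own pattern over the kinds. Egr1 was highest in layer 6 corticothalamic nuclei (53.8 CPM) and then in D2 (37.6) and D1 (32.2) medium spiny nuclei, against 3.22 in Lhx6 interneuron-like nuclei. Arc was also highest in layer 6 nuclei, at 24.9 CPM against 9.71 in the broad excitatory kind, 7.99 in upper layer nuclei and 1.63 in thalamic nuclei. Nr4a3 was highest in CA pyramidal nuclei at 67.1 CPM, where the 7 libraries ran from 49.4 to 89.9 with a median of 64.6. Its level was 41.5 CPM in layer 5 nuclei, 37.9 in the broad excitatory kind and 23.0 in dentate granule nuclei, where 69.8 of 1 library stood against a median of 12.3 over libraries. Nr4a1 was highest in layer 5 (28.0), layer 6 (26.7) and CA pyramidal nuclei (24.9) among the kinds with over 100 nuclei. Jun went its own way. It reached 21.5 CPM in dentate granule nuclei, where libraries ran from 12.7 to 27.9, and 25.6 in 79 endothelial and pericyte-like nuclei. The latter value rests on 24 UFIs, and 1 library held at least 20 of these nuclei. Their cluster also had all 7 astrocyte, all 7 microglia and all 4 fibroblast markers at 2-fold or more, so its name does not cover all of its markers. Jun lay at 0.857 and 0.815 CPM in D1 and D2 medium spiny nuclei, where Egr1 was high. Junos, its antisense partner, had 49.5 CPM in dentate granule nuclei and 23.5 in endothelial and pericyte-like nuclei. Junb was highest in D2 nuclei (3.80 CPM) and Egr3 in upper layer nuclei (9.99), dentate granule nuclei (9.13) and D2 nuclei (9.10). Npas4 was flatter, at 4.23 CPM in layer 5, 4.50 in the broad excitatory kind, 4.98 in layer 6 and 1.32 in Lhx6 interneuron-like nuclei. Fos and Fosb stayed at or under 3.29 CPM in every neuron-like kind.

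**Figure D4:**
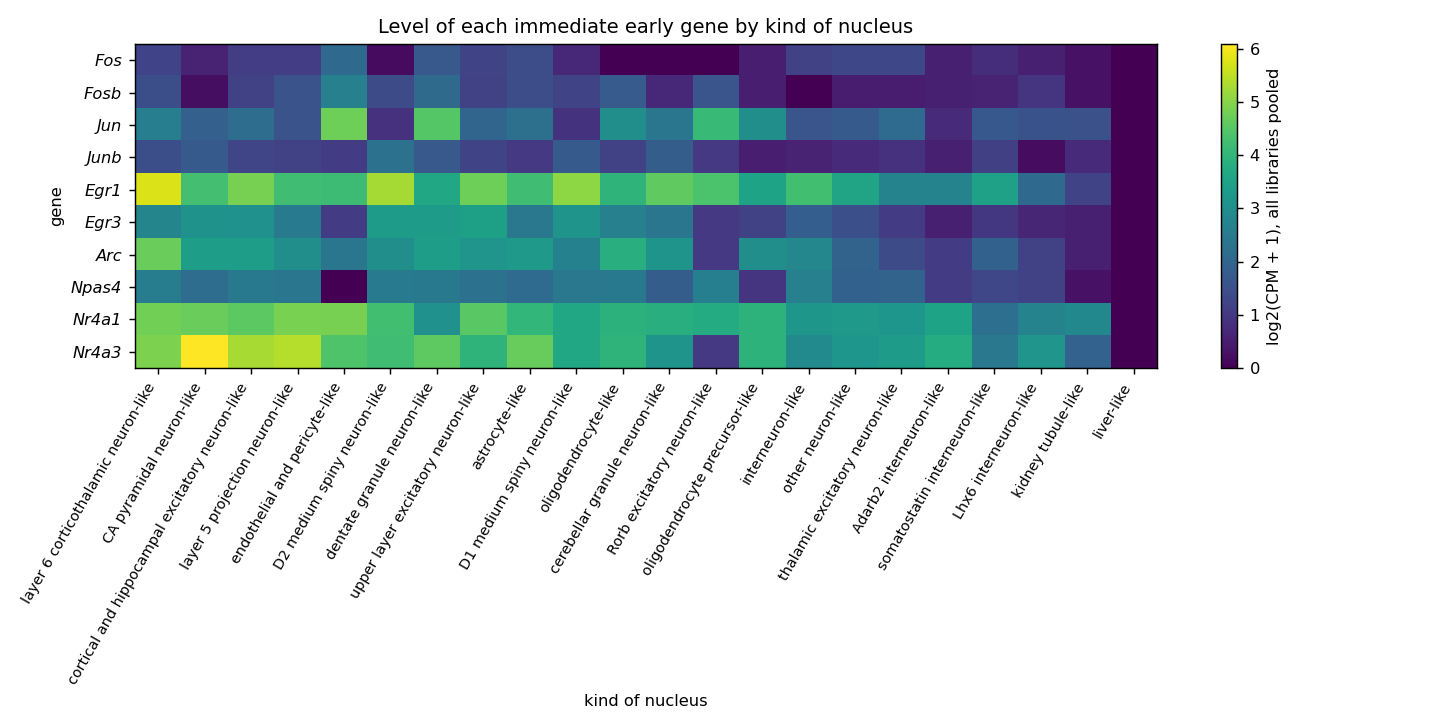
Level of each gene (rows) in each kind of nucleus with at least 20 nuclei in a library (columns, ordered by the summed level), as log2(CPM + 1) with all libraries pooled. Nr4a3 in CA pyramidal neuron-like nuclei and Egr1 in layer 6 corticothalamic neuron-like nuclei are brightest. Jun stands out in the endothelial column, where it rests on 24 UFIs, and in the dentate granule column.

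Across the 23 named kinds, some pairs of the 10 genes had like patterns and others did not. Pearson's r of log2(CPM + 1) was 0.83 for Egr1 with Nr4a1, 0.81 for Egr1 with Arc, 0.80 for Egr1 with Egr3 and 0.85 for Junb with Egr3. It was 0.79 for Npas4 with Egr3, 0.78 for Nr4a1 with Nr4a3, 0.61 for Egr1 with Nr4a3 and 0.51 for Junb with Nr4a3. For Fos it was at most 0.48, with Nr4a3, and for Jun it was 0.22 with Nr4a3 and 0.71 with Fosb. Kinds share libraries and depth, and kinds are not replicates, so these values are descriptions. Among 12960 other genes, those most like Egr1 were Ctxn1 (0.93), Tyro3 (0.92) and Rap2b (0.91), those most like Nr4a1 were Frmd6, Cacna2d1 and Plk2 (0.86 to 0.88), and those most like Arc were Nrgn, Extl1 and Rasal1 (0.86 to 0.87).

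Storage within kinds was tested in the 8 kinds with at least 20 nuclei in each library. Without preindex none of the 52 pairs of a member and a kind that passed the filter on low counts was called by edgeR (9 had an unadjusted p under 0.05, 7 of them lower), where 0.735% of 84113 pairs of a gene and a kind were called. With preindex 11 of the 52 were called and all were lower, where 0.636% of pairs were. Members in a kind passed the filter partly through the group where they were high, so the count is a description. Egr1, Arc, Nr4a1 and Nr4a3 were called in the broad excitatory kind (-1.05 ± 0.15, -1.99 ± 0.28, -1.12 ± 0.17 and -0.67 ± 0.14). The same 4 genes were called in upper layer nuclei (-1.80 ± 0.24, -1.75 ± 0.49, -1.27 ± 0.25 and -2.24 ± 0.34). Nr4a1 (-2.18 ± 0.37) and Nr4a3 (-1.91 ± 0.38) were called in D1 nuclei and Nr4a3 (-1.93 ± 0.39) in D2 nuclei. The adjusted p of these 11 calls lay between 1.48e-05 and 0.0434. No member was called in CA pyramidal, dentate granule, thalamic or other neuron-like nuclei. These calls belong to a clustering resolution of 1.2, and at 0.4, where kinds hold other nuclei, they differed. There only Egr1 was called in the broad excitatory kind, only Nr4a1 in D1 nuclei and only Nr4a3 in D2 nuclei. Egr1, Nr4a1 and Nr4a3 were called in upper layer nuclei, and Arc, Egr1 and Nr4a1 in the Rorb and layer 6 kinds. All of these were lower. The summed level of the 10 genes in Index_frozen over Index_fresh was 0.516 in the broad excitatory kind, 0.331 in upper layer, 0.448 in D1 and 0.458 in D2 nuclei. It was 0.879 in CA pyramidal, 0.804 in thalamic, 0.881 in other neuron-like and 1.11 in dentate granule nuclei, and whether the kinds differ from each other was not tested. Over the 17 kinds with enough nuclei, both Index_frozen libraries lay below Index_fresh in 15, with a median ratio of 0.492. Without preindex both frozen libraries lay below both fresh libraries in 2 of 9 kinds and above both in 1, with a median ratio of 0.994. These counts cannot be set against each other. With preindex the frozen libraries had to lie below 1 fresh library, and without preindex below 2. The kinds counted differ, and kinds share libraries and are not replicates. The share of other genes with such an order was not computed within kinds.

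Single nuclei showed how unevenly the UFIs were spread. Of all nuclei, 54.2% held none of the 10 genes, 26.4% held 1 gene and 407 nuclei held 4 or more. A single dentate granule-like nucleus of No_index_fresh replicate 1 held all 10 genes with 204 UFIs of its 23667, near the median depth of that library (21127 UFIs). It had 41 UFIs of Arc, 36 of Nr4a3, 30 of Nr4a1, 19 of Fosb, 18 each of Egr1, Egr3 and Npas4, 11 of Fos, 7 of Jun and 6 of Junb, while the median dentate granule-like nucleus held 0. It was the nucleus with the most UFIs for every gene except Nr4a3, which reached 51 in another dentate granule-like nucleus of the same library, with 79 UFIs over 9 of the genes. This nucleus alone held 24.4% of the Fos UFIs and 36.5% of the Fosb UFIs of its library of 1000 nuclei. Without it the summed level in that library fell from 96.1 to 87.9 CPM, Fos from 1.82 to 1.38 and Fosb from 2.10 to 1.33, and the dentate granule kind there from 246 to 99.8 CPM. Storage without preindex still gave 1 call without this nucleus in all nuclei and 0 in neuron-like nuclei, where Junb had passed with it, and the median over the members was -0.12 in place of -0.20 in all nuclei. The nucleus is in neither preindexed group, so the 7 calls with preindex, which stayed, do not test its weight.

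**Figure D5:**
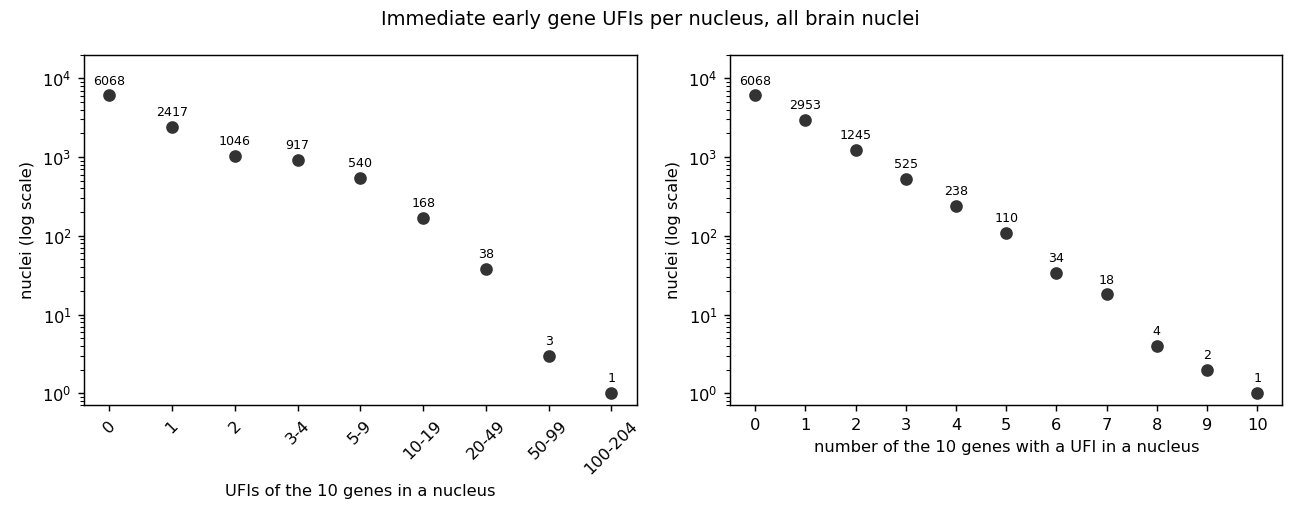
Number of nuclei (y axis, log scale) by UFIs of the 10 genes (left) and by how many of the 10 genes had a UFI (right), over all 11198 nuclei. Counts fall from 6068 nuclei at 0 to 1 nucleus at 204 UFIs and 10 genes.

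In neuron-like nuclei thinned to 3000 UFIs, members were seen together more often for some pairs than others. Nr4a3 was found in 15.2% of the 442 nuclei with Nr4a1 and in 4.98% of those without. Nr4a1 was found in 11.4% of the 596 nuclei with Egr1 and in 4.00% of those without, and Arc in 7.72% and 1.61%. Jun did not pair in this way with Nr4a3, which was found in 1.94% of the 103 nuclei with Jun and in 5.47% of those without. These pairs pool kinds and libraries that differ in level, so the shares are descriptions.

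Related genes were followed in lists that were written with earlier results of these data known. Of 24 other rapid immediate early genes, 21 were tested. Without preindex 0 of 21 passed in edgeR (2 had an unadjusted p under 0.05, both lower) and 0 in DESeq2, and Btg2, an antiproliferative factor, came nearest as lower (-0.84 ± 0.26, adjusted p = 0.0931). With preindex 9 of 21 passed, all lower (Dusp1, Dusp6, Egr2, Fosl2, Ier5, Klf10, Nr4a2, Per1 and Plk2), where 9.45% of all genes tested did, with a median of -0.53, and DESeq2 called 4 genes of the list. Per1, a clock gene that CREB also drives, fell by 0.99 ± 0.10 on the log2 scale. Plk2, a polo-like kinase of synapses, fell by 0.76 ± 0.088, and Fosl2, an AP-1 subunit, fell by 0.70 ± 0.094. In neuron-like nuclei 7 of 20 passed, all lower, where 3.55% of genes did.

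Of the 14 later activity-regulated genes, 3 passed without preindex and 8 with preindex, the latter all lower against 9.45% of all genes, with a median of -0.37. Homer1, a postsynaptic scaffold with an activity-induced short form, was lower in frozen by 1.05 ± 0.063 with preindex. Pcsk1, a prohormone convertase, was lower by 0.98 ± 0.11, and Sorcs3, a sorting receptor, by 0.42 ± 0.059. For Homer1 and Sorcs3 it was the single Index_fresh library that stood apart. Homer1 lay at 239 and 240 CPM in Index_frozen, 215 to 243 without preindex and 479 in Index_fresh. Sorcs3 lay at 572 and 537 CPM in Index_frozen, 517 to 553 without preindex and 714 in Index_fresh. Without preindex Nrn1 (-0.38 ± 0.081) and Scg2 (-0.30 ± 0.067) were lower in frozen and Tll1 (0.64 ± 0.075) was higher, and DESeq2 called 1 gene of the list. In neuron-like nuclei with preindex 3 of 14 passed, Homer1, Pcsk1 and Sorcs3, all lower against 3.55% of genes.

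The genes upstream of the response differed by smaller amounts. Of 19 kinases, channels and activators, Camk4 alone passed without preindex, as higher (0.28 ± 0.047), while in neuron-like nuclei Camk2a (-0.16 ± 0.042), Grin2b (-0.15 ± 0.041) and Mef2c (-0.18 ± 0.046) passed as lower. With preindex 8 passed as lower in all nuclei against 9.45% of genes, with a median of -0.13 and 5 in DESeq2, among them Camk2a (-0.27 ± 0.054), Grin2b (-0.24 ± 0.054) and Grin2a (-0.19 ± 0.051). None of the 8 passed as lower in neuron-like nuclei, where Mef2c passed as higher (0.31 ± 0.056). Of 8 heat shock genes, 7 were tested and 0 passed without preindex in edgeR (1 with an unadjusted p under 0.05) and 0 in DESeq2, and in neuron-like nuclei Hspa5 passed as lower (-0.27 ± 0.067). With preindex 4 of 7 passed as lower, Hsp90aa1 (-1.03 ± 0.088), Hspa8 (-0.75 ± 0.071), Hspa5 (-0.67 ± 0.072) and Hsph1, against 9.45% of genes, and 3 of 7 in neuron-like nuclei against 3.55%.

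The primer comparison, with storage as a further term, called 0 of 10 members by edgeR, where 15.8% of genes were called in either direction, and 0 by DESeq2. Jun and Egr3 had an unadjusted p under 0.05, both lower with preindex. The fit had no term for a storage difference that depends on the primer, as was found for Egr1, Arc, Nr4a1 and Nr4a3. Its 0 calls therefore do not show that the primers gave like levels of these genes. Without Index_fresh the primer term compares Index_frozen with No_index_frozen alone. There 5 members were called as lower with preindex (Egr1, Egr3, Arc, Nr4a1 and Nr4a3), where 13.9% of 18125 genes were.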

How the data were processed

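UFIs per gene and nucleus were taken as deposited, as whole counts. The authors used Cutadapt to trim poly-A tails, a cutoff on read number set by hand to choose barcodes, STAR for alignment, featureCounts to assign unique alignments to whole genes including introns, and UMI-tools to count UFIs. The methods give these steps for the tumour libraries, and the submitters' processing notes name the same tools for the brain libraries, so the order and settings used there are taken as alike. GRCm38 is among the builds in those notes, and tool versions for the brain libraries are not given in the sources used here. All nuclei were kept. Counts were scaled to 10000, logged and reduced to 2000 variable genes and 40 components in scanpy 1.11.5, leaving out 75 genes of the lists used here. The Leiden resolution was 1.2, chosen after the data were seen in place of 0.4, at which astrocyte, endothelial and cerebellar granule genes led 1 cluster. Apart from the neuron class, a name required 3 or more markers, making up 50% or more of the list, at 2-fold the mean of other clusters. At least 1 of them had to be among the 10 leading genes. The neuron class had a weaker rule, with no 2-fold test. It required 3 or more neuron markers above the mean over clusters, or a neuron subtype that passed the rule above. No marker of a non-neuronal class could be among the 10 leading genes. A broader neuron subtype could also be given where 70% of its markers were above the mean over clusters. The naming rule dates from after a first look at the clusters.

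UFIs summed per library were filtered with filterByExpr, normalised by TMM and compared in edgeR 4.0.16 (glmQLFTest, 4 groups, Benjamini-Hochberg adjustment over all genes tested, threshold 0.05). Expression is given as CPM of the summed counts. In simulated counts 200 genes were changed by 1.5 on the log2 scale. Storage without preindex (18555 genes) gave 164 calls, of which 152 were changed genes and 7.32% were false, and storage with preindex (18548 genes) gave 168 calls, of which 153 were changed genes and 8.93% were false. Alternatives were DESeq2 1.42.0, upper-quartile scaling, no filter, a replicate block, an additive model, fewer libraries, thinning to 3000 UFIs, and leaving out each library, kidney and liver nuclei or the nucleus with most UFIs of the members, the last added after seeing the data. Depth ranged from 8605214 to 42439731 UFIs per library. Intervals cover counting error at the 95% level. The named genes were the 10 members, up to 3 genes per list, direction and storage comparison with the smallest p, and the 3 genes most like a member over kinds with at least 10 CPM. A further 6 rapid genes and Hsph1 were named because they passed. Members and lists were chosen with earlier results of these data known. The species-mix files were not used here.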

Additional observations from a re-analysis of the deposited data

Results flagged for a closer look

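The storage difference depended on the primer for 4 of the 10 genes by a test of the difference itself in the 4-group edgeR fit (adjusted p between 1.67e-05 and 9.31e-05). The preindexed log2 difference minus the one without preindex was -1.20 for Egr1, -1.59 for Arc, -1.29 for Nr4a1 and -1.01 for Nr4a3. Both terms of the preindexed difference rest on 3 libraries, of which 1 is fresh, and the Index_frozen libraries also hold the 471 kidney tubule-like nuclei. The same 4 genes passed this test in neuron-like nuclei, where 656 of 18314 genes passed in this direction. Their values there were -1.04, -1.44, -1.23 and -0.87. Groups held 1 or 2 libraries, so no group was large enough for a check of single outlying libraries.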

How the results depend on the processing

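In all nuclei and in neuron-like nuclei, Arc, Egr1, Nr4a1 and Nr4a3 were called for storage with preindex and for the interaction under each alternative run that fitted these contrasts. The calls within single kinds did change with the clustering resolution. The additive model has a single storage term over both primers, a different quantity, and called none of the 10 genes for it. At 3000 UFIs per nucleus 8 of the 10 genes passed the filter on low counts, so the counts of calls given for that setting are out of 8. For storage without preindex in all nuclei the 1 call became 0 with DESeq2, 0 in the 4 libraries without preindex alone, 0 at 3000 UFIs per nucleus, 2 without the filter, and 0 to 1 with a library left out. With preindex the 7 calls became 4 with DESeq2, 4 at 3000 UFIs and 4 to 7 with a library left out, and no value could be had without Index_fresh. In neuron-like nuclei the 1 call became 0 with DESeq2, 0 without the nucleus with most UFIs of the members, 0 at resolution 0.4 and 0 to 1 with a library left out. The 4 neuron-like calls with preindex became 7 without the filter and 4 to 6 with a library left out. The primer calls went from 0 to 2 without the filter and ran from 0 to 5 with a library left out. Replicate numbers did not pair the libraries (correlations 0.042, -0.013 and -0.043), and the replicate block gave 1 call without preindex, 6 with it and 4 for the interaction, and 0 in neuron-like nuclei without preindex.

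Directions of genes that were not called turned in some settings, and the cause was not tested. Without preindex, Fos came to 0.067 and Egr3 to 0.032 without that nucleus, and at 3000 UFIs Jun came to 0.059, Egr3 to 0.30, Nr4a1 to 0.047 and Nr4a3 to 0.13. With preindex Jun came to 0.044 at 3000 UFIs. In the interaction Fosb came to -0.056 with upper-quartile scaling, -0.0059 without the filter and -0.34 without that nucleus, and Jun to -0.015 at 3000 UFIs. With a library left out, storage without preindex ran from -0.59 to 0.28 for Fos, -0.095 to 0.22 for Egr1, -0.20 to 0.089 for Egr3 and -0.23 to 0.0025 for Nr4a3. In neuron-like nuclei it ran from -0.10 to 0.25 for Egr1, -0.28 to 0.029 for Nr4a1 and -0.19 to 0.032 for Nr4a3. The interaction ran from -0.44 to 0.45 for Fosb, -0.053 to 0.19 for Jun and -0.012 to 0.32 for Junb. Genes called without preindex went from 870 to 504 with DESeq2, 239 at 3000 UFIs and 1522 without the filter. With preindex they went from 4347 to 2466 with DESeq2 and 1393 without kidney and liver nuclei. Lower with preindex were 1055 of 19299 tested genes with DESeq2 and 1342 of 13743 at 3000 UFIs. In neuron-like nuclei without the filter 935 of 34021 were lower with preindex. The additive model called 40 genes for its storage term, which covers both primers and is not the preindexed difference. Fos, Fosb and Junb had at most 74 UFIs in a library, which limits what could be detected for them.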

Other observations

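The 10 nuclei with the most UFIs of the 10 genes were also not all neuron-like. The third, an astrocyte-like nucleus of No_index_fresh replicate 1, held 79 UFIs of 7 of the genes among 46323. It had 31 of Nr4a3, 14 of Nr4a1 and 11 of Arc, and the median depth of its library was 21127 UFIs. The sixth, an oligodendrocyte-like nucleus of No_index_fresh replicate 2, held 43 UFIs of 8 of the genes among 38978. The median depth of that library was 27543 UFIs. No doublets were removed, and whether these barcodes also held a neuron was not tested. Of the 10, 9 came from the 2 No_index_fresh libraries, which were also the deepest per nucleus.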
